A study of Mus musculus with 16 samples.

Results

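The genes described here encode the proteins of the mitochondrial ribosome. They were chosen by symbol, as all entries that begin with Mrpl or Mrps followed by a digit, without pseudogenes marked -ps, and the rule used no measured value. It found 78 genes among the 55367 symbols of the count tables, and 77 of them passed the filter on low counts. By their labels the cells were mIMCD3, a mouse inner medullary collecting duct line, although the note on RNA extraction names primary TEC instead, and this was not settled here. They were pretreated for 5 h with DMSO or with 10 µM sulforaphane (SFN), an isothiocyanate known to activate the transcription factor Nrf2. WT cells of both pretreatments were collected without stress (isosmotic), after 1 h or after 6 h in hypertonic medium of 600 mOsm. Nrf2-/- cells were measured only with SFN, isosmotic and after 1 h of stress, so no Nrf2-/- cells without SFN and none at 6 h stand beside them. The Nrf2-/- cells were made with CRISPR/Cas9 and drug selection, and no step of single cell cloning is stated. Each of the 8 groups held 2 biological replicates, 16 libraries in all.

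The mitochondrial ribosome translates the few proteins encoded by mitochondrial DNA, all of them subunits of the respiratory chain and ATP synthase. Its own proteins are encoded in the nucleus, made in the cytosol and imported, and they assemble on mitochondrial ribosomal RNA into a small subunit, which reads the message, and a large subunit, which forms the peptide bond. Many have bacterial counterparts and others exist only in mitochondria. Kidney tubule cells depend on mitochondrial ATP for transport, and collecting duct cells are exposed to high osmolality in the inner medulla.

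Of the 78 genes, 51 belong to the large subunit, 26 to the small subunit, and Mrps36 was put in neither, because its product is now known as a component of the 2-oxoglutarate dehydrogenase complex. By homology, 48 have a bacterial counterpart and 29 are specific to mitochondria. They lie on 17 chromosomes, with 11 genes on chromosome 11 and 8 on chromosome 17. Exon bases of another annotated gene overlap those of 33 of them, and the strand setting of the counting is not given in the sources used here. Mrpl53 (chr6:83109040-83109939) had 0 counts in all 16 libraries. Of its 790 exon bases, 695 (88.0%) are shared with Gm42688 on the same strand, which itself had at most 0.537 CPM, so the 0 says nothing about expression of Mrpl53.

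Promoter sequence upstream of 4 members is shown for reference. Mrps6 was the member with the largest increase, Mrps2 the one with the largest decrease, and Mrps22 and Mrpl10 fell at 6 h and carry an ETS or an NRF1 motif, letters bound by factors that are known to drive nuclear genes for mitochondrial proteins. Sequences are from RefSeq on GRCm38.p6, on the gene's own strand, limited to stretches with no annotated exon. Capitals mark matches to CCGGAAG (ETS) or GCGCATGCG (NRF1), searched on both strands, as were the letters AAGATGGC and TGACNNNGC described further on.
Mrps6, chr16:92058086-92058269, plus strand: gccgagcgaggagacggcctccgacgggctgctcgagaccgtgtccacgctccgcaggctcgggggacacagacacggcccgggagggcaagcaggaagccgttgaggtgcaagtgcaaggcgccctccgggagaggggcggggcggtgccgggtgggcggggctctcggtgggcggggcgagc
Mrps2, chr2:28467816-28468065, plus strand: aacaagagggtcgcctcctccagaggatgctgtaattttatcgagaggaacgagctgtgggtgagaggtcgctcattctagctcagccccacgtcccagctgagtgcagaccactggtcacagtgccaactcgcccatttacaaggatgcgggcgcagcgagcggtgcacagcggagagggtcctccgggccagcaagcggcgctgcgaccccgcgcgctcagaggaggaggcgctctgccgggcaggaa
Mrps22, chr9:98601680-98601929, minus strand: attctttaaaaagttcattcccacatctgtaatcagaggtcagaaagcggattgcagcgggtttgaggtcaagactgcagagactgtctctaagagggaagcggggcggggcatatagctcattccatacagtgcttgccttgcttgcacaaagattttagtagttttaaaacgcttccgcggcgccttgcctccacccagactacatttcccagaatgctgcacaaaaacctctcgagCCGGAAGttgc
Mrpl10, chr11:97041408-97041559, plus strand: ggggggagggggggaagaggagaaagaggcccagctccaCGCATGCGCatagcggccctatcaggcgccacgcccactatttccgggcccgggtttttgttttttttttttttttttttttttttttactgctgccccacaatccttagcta

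A RefSeq window of 250 bases before to 50 after the start was listed for 69 of the 78 members. CCGGAAG stood in 36.2% of the members' windows against 16.3% of the 12378 windows of tested genes. AAGATGGC, the core letters bound by YY1, stood in 17.4% against 4.23%, and GCGCATGCG in 10.1% against 3.21%. TGACNNNGC, the core of the antioxidant response element that Nrf2 binds, stood in 20.3% of the members' windows and in 14.5% of all tested ones. Among members called lower in both comparisons of Nrf2-/- with WT cells, described further on, TGACNNNGC stood in 1 of 17 windows. Among those called lower in neither, it stood in 9 of 41, and these counts were not tested. These matches are letters in a window and were not tested as binding sites. Among the 4 sequences above, those of Mrps6 and Mrps2 held none of these motifs.

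Libraries held 34484296 to 50774875 counts, and the members took 0.243% to 0.461% of them. Nfe2l2, the gene of Nrf2, stood at 11.02 to 11.6 CPM (counts scaled to the library total, with TMM factors) in the Nrf2-/- libraries and at 64.0 to 149 CPM in WT libraries. Epithelial genes such as Krt8, at 650 to 1109 CPM, and Cdh1 were detected in every library. Of the collecting duct markers, Pax8 and Tfcp2l1 were detected throughout, while the water channel Aqp2 was at 0 to 0.323 CPM. Markers of other cell types were low but not absent over the 16 libraries: the fibroblast genes Col1a1 and Dcn stood at 0.663 to 7.04 and 0 to 0.0881 CPM, and the leukocyte genes Cd68, Ptprc and Lyz2 at 1.88 to 6.83, 0 to 5.68 and 0 to 0.154 CPM. The pair of Nrf2-/- SFN 1 h libraries stood apart, with a biological coefficient of variation of 0.348 against 0.0393 to 0.128 in the other 7 pairs. In that pair replicate 1 was higher than replicate 2 in 71 of 77 members, by a median of 0.57 on the log2 scale. Because all groups shared 1 estimate of the spread, results are also given from a fit without this pair, a choice made after seeing the data.

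Per kilobase of exon, the median member stood at 14.9 CPM over all libraries and the median of all tested genes at 2.32. Mrpl34 was highest with 96.3 CPM per kilobase over the 16 libraries, followed by Mrps21 (84.5), Mrpl12 (83.9), Mrpl54 (63.8) and Mrpl28 (60.8). Beside Mrpl53, the lowest were Mrpl48 (2.27), Mrpl33 (2.94), Mrps35 (3.68) and Mrpl23 (4.58). Levels set against union exon length depend on the annotated transcripts, so a long annotated 3′ end lowers them. The order was not the same in each group: in Nrf2-/- cells Mrpl12 had the higher group mean, 64.1 isosmotic and 82.3 at 1 h against 57.6 and 63.8 for Mrpl34. The ranges across the 16 libraries of neighbours in this order overlapped, with 35.9 to 135 for Mrpl34 and 20.2 to 123 for Mrps21.

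The summed level of all members was lower after 6 h of stress than before it. It was 3929 and 4485 CPM in the WT DMSO isosmotic libraries, 3792 and 3734 CPM after 1 h, and 3059 and 3194 CPM after 6 h. With SFN it was 3960 and 3494 CPM isosmotic, 3764 and 3804 CPM after 1 h, and 2921 and 3047 CPM after 6 h. All 4 libraries at 6 h lay below all 8 earlier WT libraries. In Nrf2-/- cells with SFN it was 2963 and 3029 CPM isosmotic, and 3730 and 2557 CPM after 1 h. At each of these time points both Nrf2-/- values lay below both WT values with SFN, but at 1 h replicate 1 lay close to WT. In bulk RNA, fewer cells of a kind and less RNA per cell cannot be told apart, and CPM give a gene's share of the counted RNA, not its amount.

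**Figure D1:**
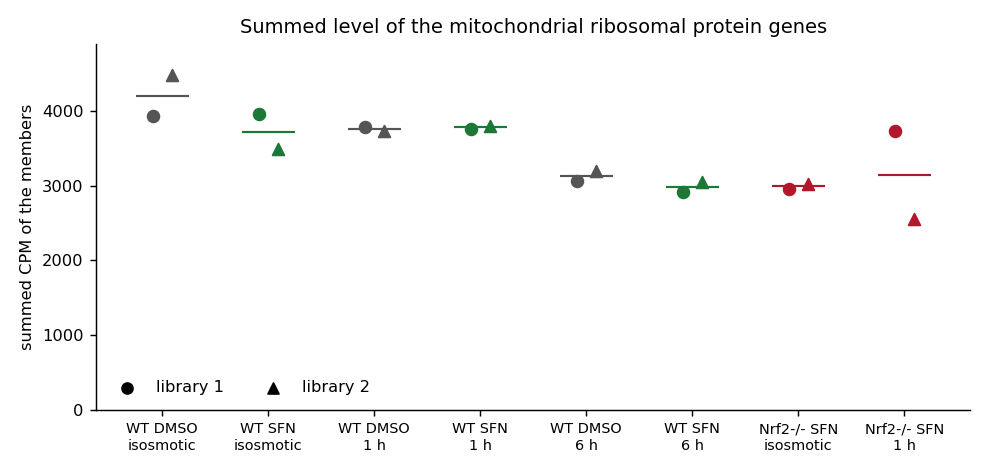
Summed CPM (TMM-scaled) of the 78 mitochondrial ribosomal protein genes in each of the 16 libraries, by group; circles are replicate 1, triangles replicate 2, bars group means. The 4 libraries at 6 h lie between 2921 and 3194 CPM, and the replicates of Nrf2-/- SFN 1 h lie at 3730 and 2557 CPM.

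The first question was how members responded to 6 h of hyperosmotic stress in WT cells with DMSO. Of the 77 members tested, 43 fell and 2 rose, where 22% of all 19509 genes fell and 23.9% rose (edgeR quasi-likelihood test, Benjamini-Hochberg adjusted p under 0.05). The members' median log2 fold change was -0.53, beside 0.05 over all genes. In the large subunit 28 of 50 genes fell, with a median of -0.53, and 15 of 26 small subunit genes fell, with a median of -0.50. By homology, 26 of 48 genes with a bacterial counterpart fell (median -0.45), as did 17 of 28 specific to mitochondria (median -0.54). Among the 45 members that share no exon bases with another gene, 26 fell and 1 rose. Without the Nrf2-/- SFN 1 h libraries 61 members fell and 2 rose, beside 28.7% of all genes that fell. The share of all genes that rose in that fit is not given here. Cell type markers also differed at 6 h, though not in every list. The 6 epithelial genes summed to 3330 to 3508 CPM at 6 h against 1892 to 3346 CPM in the other WT libraries, ranges that overlap. The 8 collecting duct genes summed to 703 to 765 CPM at 6 h against 123 to 136 CPM in the other WT libraries, of which Pax8 made up 669 to 730 and 91.3 to 104 CPM. Markers of other cell types were at lower levels: 4 proximal tubule genes summed to 21.2 to 27.5 CPM at 6 h against 9.06 to 12.7 CPM in the other WT libraries. Endothelial genes (3) summed to 3.999 to 5.36 against 0.0477 to 0.742 CPM, and leukocyte genes (3) to 6.86 to 10.5 against 1.93 to 4.87 CPM. Fibroblast genes (4) summed to 4.74 to 7.102 against 2.11 to 5.08 CPM, ranges that overlap. Within these lists, Slc34a1 stood at 0.156 to 0.940, Cdh5 at 0.174 to 0.343 and Dcn at 0 to 0.0881 CPM at 6 h. Other genes stood higher: Pecam1 held 99 to 138 counts at 6 h against 0 to 25 in the other WT libraries. Ptprc held 132 to 196 counts against 0 to 12, whereas those of Cd68 overlapped. The part of these markers in the members' values was not tested.

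Mrps2, a small subunit protein with a bacterial counterpart (chr2:28468066-28471178), had the largest decrease. Its levels were 42.8 and 43.3 CPM in DMSO isosmotic libraries, 41.0 and 42.2 CPM after 1 h, and 13.1 and 13.6 CPM after 6 h. The libraries at 6 h lay far below all others, a 3.23-fold decrease (log2 fold change -1.69, SE 0.11, adjusted p = 2.071e-08 by edgeR). Mrps22, a small subunit protein specific to mitochondria (chr9:98588730-98601660), stood at 26.1 and 32.8 CPM isosmotic, 32.2 and 30.4 CPM at 1 h, and 13.4 and 11.2 CPM at 6 h. It fell by 1.26 on the log2 scale (SE 0.13, adjusted p = 3.511e-06).

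In the large subunit, Mrpl41, a protein specific to mitochondria (chr2:24974117-24975098), was at 18.5 and 25.3 CPM isosmotic, 18.2 and 18.2 CPM at 1 h, and 7.504 and 6.86 CPM at 6 h. The log2 fold change at 6 h was -1.61 (SE 0.35, adjusted p = 0.001944). Mrpl15, with a bacterial counterpart (chr1:4773206-4785739), was at 55.5 and 65.7 CPM isosmotic, 52.5 and 55.5 CPM at 1 h, and 24.2 and 21.4 CPM at 6 h. It fell by 1.41 on the log2 scale (SE 0.13, adjusted p = 8.617e-07). Mrpl55 (chr11:59202486-59206134) was at 20.5 and 24.9 CPM isosmotic, 19.1 and 22.1 CPM at 1 h, and 9.16 and 10.0 CPM at 6 h. Its log2 fold change was -1.24 (SE 0.26, adjusted p = 0.001301). For all of these genes, isosmotic and 1 h libraries lay above both libraries at 6 h.

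Mrps6, a small subunit protein with a bacterial counterpart, moved the other way. It stood at 27.7 and 33.4 CPM in DMSO isosmotic libraries, 28.5 and 28.2 CPM after 1 h, and 119 and 132 CPM after 6 h. This 4.11-fold increase (log2 fold change 2.04, SE 0.18, adjusted p = 7.149e-07) was far above the spread between replicates. Mrps6 (chr16:92058270-92112227) overlaps Slc5a3 (chr16:92058322-92087473), which encodes the sodium and myo-inositol cotransporter, a classical osmoprotective gene. The genes lie on the same strand with nearly the same start, and 159 of the 1533 exon bases of Mrps6 (10.4%) are also exon bases of Slc5a3. Another gene on this strand, Gm49711, shares 305 exon bases with Mrps6 (19.9%) and held 17 to 29 counts in each library at 6 h and 0 to 4 in the others. Slc5a3 was at 49.4 and 46.7 CPM isosmotic, 90.1 and 83.2 CPM at 1 h, and 978 and 872 CPM at 6 h (log2 fold change 4.27, SE 0.26, adjusted p = 3.26e-08). At 1 h Slc5a3 had risen by 0.85 on the log2 scale (SE 0.23, adjusted p = 0.03046), whereas the levels of Mrps6 stayed within those of the isosmotic libraries. The part of the shared start or of shared reads in the Mrps6 values was not tested.

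Mrpl45, a large subunit protein at the inner membrane side of the ribosome (chr11:97315716-97329920), was the other member that rose. Its levels were 87.4 and 103 CPM isosmotic, 86.6 and 84.7 CPM at 1 h, and 110 and 124 CPM at 6 h. The change was small (log2 fold change 0.30, SE 0.11, adjusted p = 0.03747) and was lost without DMSO isosmotic replicate 1 (adjusted p = 0.3254) or without DMSO 6 h replicate 2 (adjusted p = 0.2843).

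**Figure D2:**
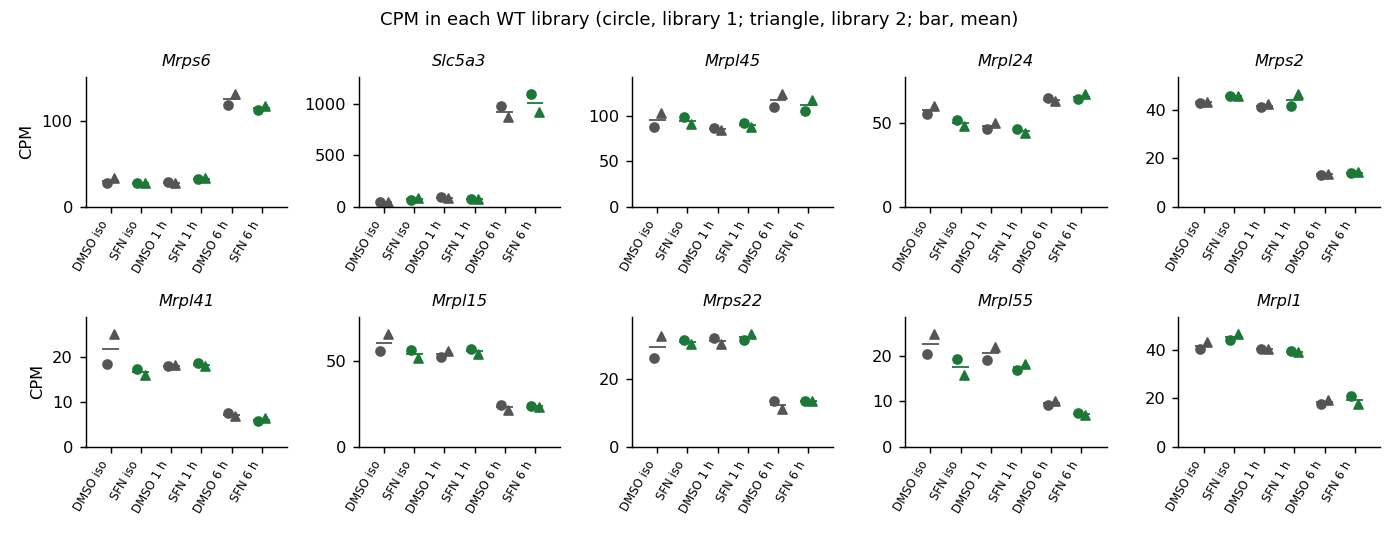
CPM (linear axis from 0) in each of the 12 WT libraries for Slc5a3 and for the members with the largest changes at 6 h; grey is DMSO, green is SFN, circles are replicate 1, triangles replicate 2, bars means. Mrps6 and Slc5a3 are highest in the 4 libraries at 6 h, where Mrps2 stands at 13.1 to 14.2 CPM against 41.0 to 46.5 CPM in the other 8.

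The same time course was measured with SFN pretreatment, in libraries not shared with the DMSO course. Of 77 members, 39 fell and 2 rose at 6 h, where 22.9% of all genes fell and 24.7% rose. The members' median log2 fold change was -0.44, beside 0.09 over all genes. Large subunit genes fell in 25 of 50 cases and small subunit genes in 14 of 26. The 41 calls became fewer without SFN isosmotic replicate 1 and without SFN 6 h replicate 1, fits that left 1 library in a group. The share of all genes called in those fits is not given here.

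Mrps2 was at 45.9 and 45.6 CPM with SFN isosmotic, 41.4 and 46.5 CPM at 1 h, and 13.9 and 14.2 CPM at 6 h (log2 fold change -1.70, SE 0.11, adjusted p = 1.668e-08). Mrpl41 was at 17.4 and 16.2 CPM isosmotic and 5.67 and 6.42 CPM at 6 h (-1.47, SE 0.35, adjusted p = 0.003696). Mrpl55 was at 19.3 and 15.9 CPM isosmotic and 7.46 and 7.01 CPM at 6 h (-1.28, SE 0.26, adjusted p = 0.001109). Groups did not overlap for any of these 3 genes.

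Mrpl1, which in bacterial ribosomes has a counterpart in the mobile L1 stalk (chr5:96209493-96266727), was at 44.0 and 46.6 CPM isosmotic, 39.6 and 38.9 CPM at 1 h, and 20.8 and 17.5 CPM at 6 h (log2 fold change -1.24, SE 0.12, adjusted p = 1.45e-06). Mrpl15 was at 56.6 and 51.8 CPM isosmotic and 23.9 and 23.1 CPM at 6 h (-1.20, SE 0.13, adjusted p = 3.349e-06). Mrps6 rose from 28.02 and 27.6 CPM to 113 and 118 CPM (2.06, SE 0.18, adjusted p = 5.882e-07), and Slc5a3 from 61.8 and 82.1 CPM to 1097 and 920 CPM (3.81, SE 0.25, adjusted p = 6.605e-08). Mrpl24, a protein near the exit of the peptide tunnel, was the other member called higher, from 51.7 and 48.3 CPM to 64.2 and 67.2 CPM. Its log2 fold change of 0.39 (SE 0.16, adjusted p = 0.04988) lay at the threshold and missed it in each of the 4 fits that left out 1 library.

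The members called lower in the DMSO and SFN courses were largely shared. 37 members fell in both, 86% of the 43 in DMSO and 94.9% of the 39 in SFN. Over all genes, the shared decreases made up 82.6% and 79.4% of those in the respective course. Mrps14, Mrps26, Mrpl46, Mrpl22, Mrpl32 and Mrpl11 were called lower only in DMSO, and Mrpl50 and Mrps24 only in SFN. The difference between the courses was called for 0 of 77 members (edgeR interaction test, 0 at an unadjusted p under 0.05, 0 by DESeq2), against 0.759% of all genes. The lowest unadjusted p among members was that of Mrps14 (difference 0.33, SE 0.16, adjusted p = 0.5814), followed by Mrpl35 (0.26, adjusted p = 0.666) and Mrps18c (0.37, adjusted p = 0.7488). Before stress, the 37 members that fell in both courses had a median of 17.1 CPM per kilobase and a median exon length of 2919 bases. The 32 that fell in neither had 24.9 CPM per kilobase and 2050 bases. Windows with the letters CCGGAAG were 10 of 32 in the first set and 12 of 28 in the second, and those with AAGATGGC were 6 of 32 and 4 of 28. These values are descriptions without a test.

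Proteins with roles of their own within the ribosome were also followed. The stalk of the large subunit, which recruits translation factors, holds the products of Mrpl10, Mrpl11 and Mrpl12. Mrpl10 was at 77.5 and 80.8 CPM in DMSO isosmotic and 39.99 and 44.9 CPM in DMSO 6 h libraries (log2 fold change -0.90, SE 0.11, adjusted p = 1.167e-05). Mrpl12 was at 162 and 179 CPM before and 102 and 111 CPM after (-0.68, SE 0.16, adjusted p = 0.00353). Mrpl11 was at 74.8 and 91.1 CPM before and 48.9 and 55.4 CPM after (-0.67, SE 0.20, adjusted p = 0.01472). With SFN, Mrpl10 (-1.01) and Mrpl12 (-0.62) fell as well, and Mrpl11 had a log2 fold change of -0.43 (adjusted p = 0.09516). Mrpl58, a peptidyl-tRNA hydrolase built into the large subunit that can rescue stalled ribosomes, went from 46.6 and 52.5 CPM to 23.6 and 27.6 CPM (-0.95, SE 0.14, adjusted p = 6.77e-05).

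The 3 Mrps18 paralogs are related proteins in different places of the ribosome, Mrps18a in the large subunit and the others in the small subunit. Mrps18a was at 37.1 and 43.6 CPM in DMSO isosmotic and 23.6 and 22.5 CPM in DMSO 6 h libraries (log2 fold change -0.81, SE 0.20, adjusted p = 0.003647). Mrps18c was at 17.6 and 19.3 CPM before and 9.56 and 9.97 CPM after (-0.92, SE 0.18, adjusted p = 0.0007018). Mrps18b was at 22.6 and 25.7 CPM before and 24.5 and 25.6 CPM after, so that its groups overlapped (0.05, SE 0.12, adjusted p = 0.7707). Mrps18c shares 23.2% of its exon bases with Gm43511 and Mrps18b 30.5% with the antisense gene Gm16279. Mrps12, a protein of the decoding centre, was at 31.2 and 35.2 CPM before and 23.2 and 27.7 CPM after (-0.38, SE 0.29, adjusted p = 0.3103). Mrps36 was at 22.1 and 24.9 CPM before and 17.2 and 21.5 CPM after (-0.28, SE 0.22, adjusted p = 0.3352).

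Of the genes that serve the mitochondrial ribosome, assembly factors fell in 18 of 25 cases at 6 h with DMSO, with a median log2 fold change of -0.89, and 1 rose. Among them Rpusd3, a mitochondrial pseudouridine synthase, went from 2.91 and 2.85 CPM to 0.377 and 0.587 CPM (-2.58, SE 0.35, adjusted p = 3.234e-05). Tfb1m, which dimethylates the small ribosomal RNA, went from 5.60 and 4.97 CPM to 1.39 and 1.17 CPM (-2.04, SE 0.22, adjusted p = 3.194e-06). Noa1, a GTPase of small subunit assembly, rose from 51.5 and 53.0 CPM to 120 and 117 CPM (1.18, SE 0.11, adjusted p = 6.593e-07). Mitochondrial translation factors fell in 8 of 13 cases (median -0.63), and 2 of 5 mitochondrial ribosomal proteins under other symbols fell (median -0.25). Nsun4, a methyltransferase of the small ribosomal RNA that also serves large subunit assembly, fell by 1.88 on the log2 scale (SE 0.23, adjusted p = 1.161e-05). With SFN, 17 of 25 assembly factors and 7 of 13 translation factors fell, among them Tfb1m (log2 fold change -1.96), the helicase Ddx28 (-1.83) and Taco1, an activator of the translation of a cytochrome oxidase subunit (-1.76), with adjusted p of 3.576e-06, 7.609e-07 and 7.289e-07.

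Genes for mitochondrial transcription and its regulators went in both directions, with 6 of 12 higher and 2 lower at 6 h with DMSO. Tfam went lower, from 3186 and 3566 counts isosmotic to 1825 and 1843 counts at 6 h. Ppargc1a, the coactivator PGC-1α known to raise mitochondrial biogenesis, was at 1.596 and 1.53 CPM before and 6.46 and 7.16 CPM after (2.12, SE 0.30, adjusted p = 4.25e-05). Yy1, whose product binds the letters AAGATGGC, was at 186 and 182 CPM before and 520 and 498 CPM after (1.47, SE 0.10, adjusted p = 5.57e-08). With SFN, 5 of 12 rose and 2 fell, and Ppargc1a (2.30), Myc (1.55) and Yy1 (1.18) had the largest increases, with adjusted p of 1.935e-05, 9.185e-07 and 3.556e-07. Beside the members, 0 of 84 cytosolic ribosomal protein genes were called in either direction with DMSO, with a median of 0.18, and with SFN 10 rose and 0 fell, with a median of 0.43. Nuclear genes of the respiratory chain rose in 3 and fell in 2 of 85 cases with DMSO (median 0.03) and rose in 4 and fell in 1 with SFN (median 0.33). No test compared these lists with each other.

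**Figure D3:**
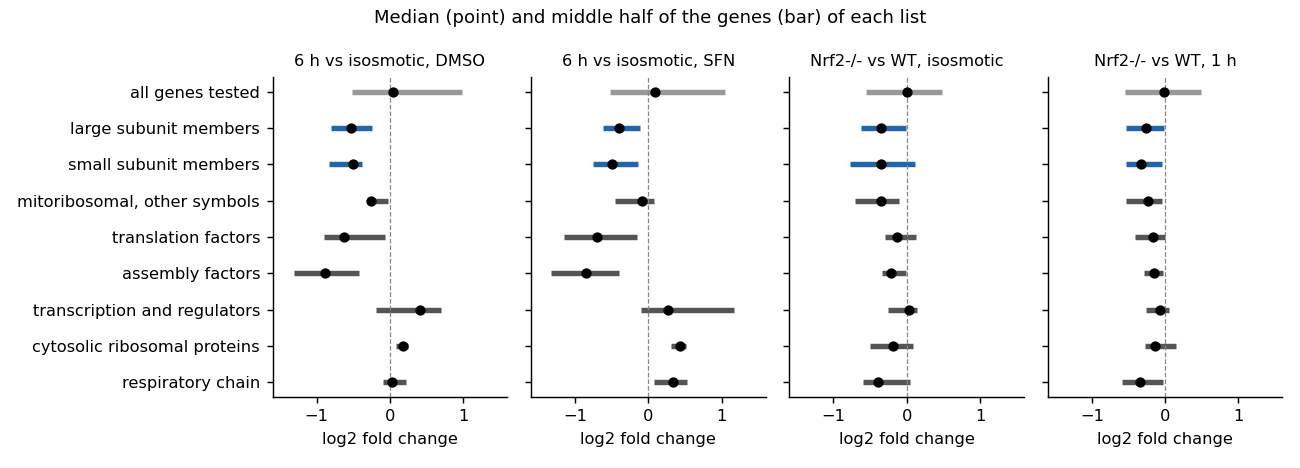
Median (point) and the range from the lower to the upper quartile (bar) of log2 fold changes for the members by subunit, for the lists that serve the mitochondrial ribosome, for cytosolic ribosomal proteins, the respiratory chain and all 19509 genes tested, in 4 comparisons. At 6 h with DMSO the medians are -0.53 and -0.50 for the subunits, -0.89 for assembly factors and 0.18 for cytosolic ribosomal proteins.

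After 1 h of stress, members had changed little. With DMSO 1 of 77 members fell and 0 rose, where 4.11% of all genes fell. That member was Mrps18c, at 17.6 and 19.3 CPM isosmotic and 12.9 and 11.02 CPM at 1 h (log2 fold change -0.62, SE 0.18, adjusted p = 0.03372). Its call was lost in each of the 4 fits that left out 1 library, with adjusted p from 0.08387 to 0.2497. The median member had a log2 fold change of -0.18, with 8 members at an unadjusted p under 0.05. In the DMSO isosmotic pair of this comparison, replicate 1 was above replicate 2 in only 3 of 77 members. The median log2 difference between these replicates was -0.19, as large as the members' median change at 1 h. The next members by unadjusted p were Mrps10, from 44.0 and 41.6 CPM to 32.5 and 33.01 CPM (-0.38, SE 0.12, adjusted p = 0.05242), and Mrps18b, from 22.6 and 25.7 CPM to 18.6 and 18.7 CPM (-0.38, SE 0.12, adjusted p = 0.05943). Without the Nrf2-/- SFN 1 h libraries 14 members fell, beside 9.33% of all genes. Of the pathway genes, Gtpbp10, an assembly GTPase of the large subunit, fell by 0.38 on the log2 scale (SE 0.11, adjusted p = 0.04112).

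With SFN, 0 of 77 members were called at 1 h by edgeR, where 9.52% of all genes were called in either direction. DESeq2 called 1, and 3 had an unadjusted p under 0.05. The median was 0.02. Mrps10 was first by unadjusted p, at 43.0 and 41.5 CPM isosmotic and 31.9 and 32.9 CPM at 1 h (-0.38, SE 0.12, adjusted p = 0.05879), and its groups did not overlap. Mrps30 (-0.28, SE 0.13, adjusted p = 0.2032) and Mrpl19 (0.21, SE 0.10, adjusted p = 0.2207) followed. Of the pathway genes, Myc rose by 0.56 (SE 0.14, adjusted p = 0.02241) and Mettl17, an assembly factor of the small subunit, fell by 0.58 (SE 0.16, adjusted p = 0.03813). The difference between the SFN and DMSO responses at 1 h was called for 0 members (edgeR; 3 at an unadjusted p under 0.05, 0 by DESeq2), against 0.559% of all genes. Lowest in unadjusted p were Mrps18c (difference 0.60, SE 0.25, adjusted p = 0.5796), Mrps14 (0.36, adjusted p = 0.6074) and Mrpl17 (0.40, adjusted p = 0.6243).

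SFN itself was compared with DMSO at each time. Isosmotic, 0 of 77 members were called by edgeR and 0 by DESeq2, where edgeR called 2.84% of all genes in either direction. The members' median log2 fold change was -0.17, 70 of 77 were below 0, and 8 had an unadjusted p under 0.05. The share of all genes below 0 is not given here. The medians of cytosolic ribosomal protein and respiratory chain genes, given below, were further below 0 than that of the members. The lowest unadjusted p was that of Mrps18c, at 17.6 and 19.3 CPM with DMSO and 13.4 and 12.6 CPM with SFN (-0.51, SE 0.17, adjusted p = 0.1621). Mrpl43 was at 23.4 and 25.9 CPM with DMSO and 19.8 and 16.3 CPM with SFN (-0.45, SE 0.16, adjusted p = 0.1807). Mrpl17 was at 64.6 and 73.4 CPM with DMSO and 53.9 and 54.9 CPM with SFN (-0.34, SE 0.12, adjusted p = 0.1853). For these 3 genes both SFN values lay below both DMSO values.

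The isosmotic replicates differed over the members as a whole. DMSO replicate 1 was above replicate 2 in only 3 of 77 members, with a median log2 difference of -0.19, as large as the difference between SFN and DMSO. The SFN pair went the other way, with replicate 1 above replicate 2 in 63 of 77 members and a median log2 difference of 0.15. Without the Nrf2-/- SFN 1 h libraries, 15 members were called lower with SFN, beside 7.3% of all genes. Cytosolic ribosomal protein genes (median -0.32) and respiratory chain genes (median -0.31) had 0 calls in this comparison. Myc, which is known to raise ribosome production, fell from 292 and 314 CPM to 175 and 192 CPM (log2 fold change -0.72, SE 0.14, adjusted p = 0.01142).

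At 1 h, 0 members were called between SFN and DMSO by edgeR or DESeq2 and 0 had an unadjusted p under 0.05, where 0.0923% of all genes were called. The median was 0.00, and the lowest unadjusted p were those of Mrps17 (log2 fold change -0.16, SE 0.13), Mrps6 (0.22, SE 0.18) and Mrpl42 (0.11, SE 0.10), each with an adjusted p of 1. At 6 h, again 0 were called by either tool and 0 had an unadjusted p under 0.05, where 0.041% of all genes were called, with a median of -0.08. The lowest unadjusted p at 6 h was that of Mrpl43, at 14.2 and 16.6 CPM with DMSO and 10.9 and 13.2 CPM with SFN (-0.35, SE 0.17, adjusted p = 1), followed by Mrpl50 (-0.17, SE 0.11) and Mrpl55 (-0.40, SE 0.27), both also at an adjusted p of 1. Mrpl43 shares 33.4% of its exon bases with Twnk on the opposite strand.

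**Figure D4:**
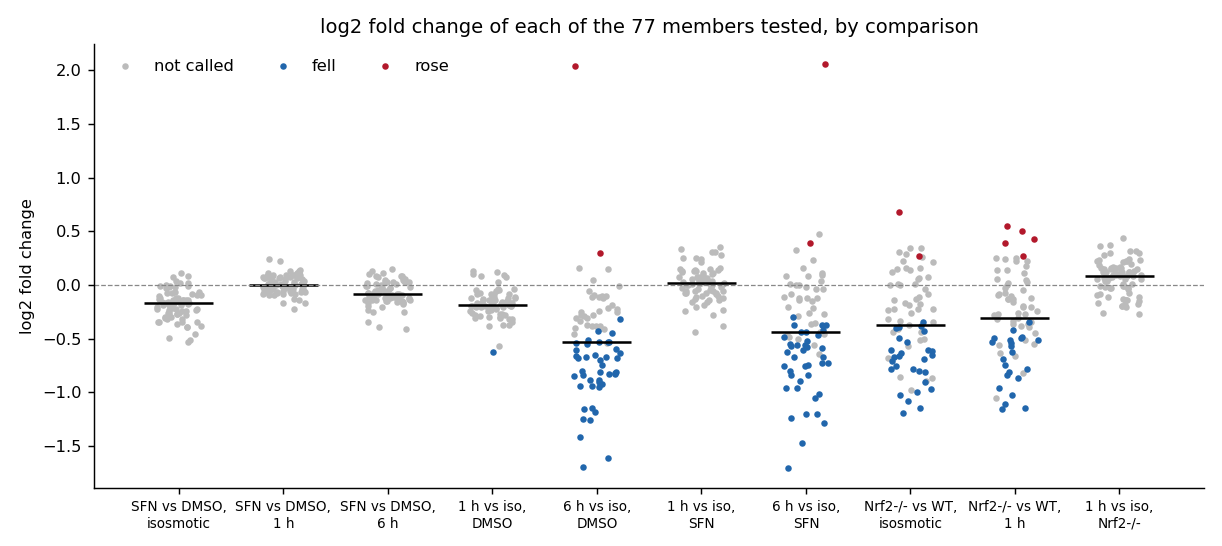
log2 fold change of each of the 77 members tested (points, spread sideways for legibility) in 10 comparisons; red points rose and blue points fell at an adjusted p under 0.05, grey points were not called, black bars are medians. Most called members lie in the 6 h and Nrf2-/- comparisons, below 0, and Mrps6 is the highest red point in each of these 4.

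The last question was how the members differed between Nrf2-/- and WT cells, both with SFN. Isosmotic, 28 of 77 members were lower in Nrf2-/- cells and 2 were higher, where 18.4% of all genes were lower and 15.7% higher. The median member had a log2 fold change of -0.37, beside 0.00 over all genes. In the large subunit 17 of 50 were lower and in the small subunit 10 of 26, each with a median of -0.36. Among the 45 members without shared exon bases, 13 were lower and 0 higher. The count depended on single libraries: 11 members were lower without WT SFN isosmotic replicate 1, 15 without Nrf2-/- SFN isosmotic replicate 1, and 13 without Nrf2-/- SFN isosmotic replicate 2, where 12%, 12.4% and 11.5% of all genes were lower. Without the Nrf2-/- SFN 1 h libraries 44 were lower and 8 higher, beside 24.6% of all genes lower. The share of all genes higher in that fit is not given here. Cell type markers moved with genotype too. The 4 proximal tubule genes summed to 2.499 and 3.33 CPM in isosmotic Nrf2-/- libraries against 9.71 and 12.7 CPM in WT, and the 4 fibroblast genes to 1.71 and 2.12 against 4.48 and 5.08 CPM. Single genes carried much of these sums. Lrp2 held 10 and 2 counts in Nrf2-/- against 247 and 383 in WT libraries, and Cubn 107 and 91 against 115 and 301. Col1a1 held 44 and 60 against 161 and 267 counts, whereas Col1a2 went the other way, with 16 and 17 against 0 and 0. The 6 epithelial genes summed to 2404 and 2494 against 1892 and 2089 CPM, but single genes of this list went both ways. Epcam (264 and 304 against 50.3 and 47.3 CPM), Cdh1 and Cldn4 were higher in both Nrf2-/- libraries. Krt8 was lower in both, and Krt18 and Krt19 overlapped between genotypes. The sums of the collecting duct and endothelial genes overlapped between genotypes, as did those of the leukocyte genes. Within the collecting duct list, Pax8, Gata3 and Scnn1a were lower and Tfcp2l1 higher in both Nrf2-/- libraries. Gata3 held 31 and 5 counts against 99 and 140 in WT, and Scnn1a 24 and 26 against 72 and 157. The other listed genes, Aqp2, Aqp3, Aqp4 and Avpr2, held 0 to 10 counts in these libraries. The part of these markers in the members' values was not tested.

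Mrps16, a small subunit protein with a bacterial counterpart (chr14:20389304-20393634), was at 43.6 and 33.9 CPM in WT and 16.2 and 17.6 CPM in Nrf2-/- libraries (log2 fold change -1.19, SE 0.26, adjusted p = 0.002681). Mrps12, of the decoding centre (chr7:28739641-28741820), was at 33.5 and 25.5 CPM in WT and 13.5 and 14.3 CPM in Nrf2-/- libraries (-1.08, SE 0.30, adjusted p = 0.01152). Mrps26 was at 53.1 and 46.1 CPM in WT and 26.4 and 22.3 CPM in Nrf2-/- libraries (-1.03, SE 0.30, adjusted p = 0.01787). In all 3 small subunit genes the genotypes did not overlap, but for Mrps12 and Mrps26 the call was lost in 3 of 4 fits that left out 1 library, with adjusted p up to 0.1012 and 0.1311.

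In the large subunit, Mrpl14, which lies at the interface of the subunits (chr17:45686322-45698495), was at 40.1 and 25.8 CPM in WT and 13.9 and 15.8 CPM in Nrf2-/- libraries (log2 fold change -1.15, SE 0.36, adjusted p = 0.02557). Mrpl38 (chr11:116131817-116138868) was at 156 and 120 CPM in WT and 72.1 and 66.2 CPM in Nrf2-/- libraries (-0.99, SE 0.19, adjusted p = 0.0007798). The call for Mrpl14 was lost without WT SFN isosmotic replicate 1 (adjusted p = 0.2032) and without either Nrf2-/- library, whereas Mrpl38 and Mrps16 kept theirs in all 4 such fits. Mrps36 was at 22.2 and 19.7 CPM in WT and 11.4 and 13.3 CPM in Nrf2-/- libraries (-0.76, SE 0.23, adjusted p = 0.01738). The stalk genes were also lower, Mrpl10 by -0.34, Mrpl11 by -0.63 and Mrpl12 by -0.53 on the log2 scale, with adjusted p of 0.02317, 0.02618 and 0.02145. None of the 3 Mrps18 paralogs was called, with log2 fold changes of -0.43 (Mrps18a), -0.23 (Mrps18b) and -0.13 (Mrps18c).

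Mrps6 was higher in Nrf2-/- cells, at 39.7 and 49.6 CPM against 28.02 and 27.6 CPM in WT (log2 fold change 0.68, SE 0.18, adjusted p = 0.008237), a call lost without Nrf2-/- SFN isosmotic replicate 2 (0.51, adjusted p = 0.1098). Slc5a3 was again higher as well, at 181 and 186 CPM against 61.8 and 82.1 CPM (1.35, SE 0.23, adjusted p = 0.0004623), and its part in the Mrps6 values was not tested. Mrpl3, a large subunit protein near the peptidyl transferase centre, was at 65.4 and 67.5 CPM against 55.3 and 54.9 CPM (0.27, SE 0.10, adjusted p = 0.04659), a call lost in each of the 4 fits that left out 1 library. Mrpl45, which had risen at 6 h of stress, was lower in Nrf2-/- cells, at 58.9 and 66.3 CPM against 98.9 and 91.1 CPM (-0.60, SE 0.11, adjusted p = 0.0006033).

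After 1 h of stress with SFN, 22 of 77 members were lower in Nrf2-/- than in WT cells and 5 were higher, where 16.2% of all genes were lower and 15.3% higher. The median was -0.30. This comparison rests on the pair of Nrf2-/- libraries that stood apart: without its replicate 1, 52 members were lower and 2 higher (median -0.56), beside 22.5% of all genes lower, and without its replicate 2, 16 were lower and 12 higher (median -0.07), beside 14.7% lower and 14.1% higher. Fewer members were called when WT SFN 1 h replicate 1 or replicate 2 was left out. In a fit of only the 4 libraries compared, 0 members were called by edgeR and 10 had an unadjusted p under 0.05, while DESeq2 over all libraries called 28. The share of all genes called is not given for these fits, nor the share higher without replicate 1 of the Nrf2-/- SFN 1 h pair.

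Mrps34 was at 16.3 and 16.5 CPM in WT and 9.37 and 5.45 CPM in Nrf2-/- libraries at 1 h (log2 fold change -1.14, SE 0.22, adjusted p = 0.0009427), and kept its call in each fit without 1 library. It shares 63.4% of its exon bases with Mapk8ip3 on the opposite strand and 37.0% with Nme3. Mrpl14 was at 36.4 and 36.9 CPM in WT and 24.6 and 8.33 CPM in Nrf2-/- libraries (-1.16, SE 0.35, adjusted p = 0.02661). Mrpl41 was at 18.8 and 18.04 CPM in WT and 12.7 and 4.33 CPM in Nrf2-/- libraries (-1.11, SE 0.34, adjusted p = 0.0255). Both Nrf2-/- values lay below both WT values for each gene, and replicate 1 lay between replicate 2 and WT.

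Mrps26 was at 61.1 and 61.4 CPM in WT and 43.5 and 16.9 CPM in Nrf2-/- libraries at 1 h (log2 fold change -1.02, SE 0.30, adjusted p = 0.01985). Mrps12 was at 30.2 and 30.8 CPM in WT and 22.6 and 8.74 CPM in Nrf2-/- libraries (-0.96, SE 0.29, adjusted p = 0.0235). The calls for Mrpl14, Mrpl41, Mrps26 and Mrps12 were lost without either WT library, with adjusted p up to 0.1051. Of the members called higher, Mrps10 was at 31.9 and 32.9 CPM in WT and 49.8 and 42.1 CPM in Nrf2-/- libraries (0.50, SE 0.12, adjusted p = 0.004792), with adjusted p = 0.05156 without WT SFN 1 h replicate 1. Mrps6 (0.55, adjusted p = 0.02898), Mrps35 (0.43, adjusted p = 0.02186), Mrpl1 (0.39, adjusted p = 0.02136) and Mrpl3 (0.27, adjusted p = 0.049) were called higher too, each lost in at least 1 fit that left out a library. The 20 members lower at both time points made up 71.4% of the 28 isosmotic and 90.9% of the 22 at 1 h, beside 70.8% and 80.2% over all genes.

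Between 1 h and isosmotic Nrf2-/- cells, 0 of 77 members were called by edgeR (1 at an unadjusted p under 0.05, 0 by DESeq2), where 7.17% of all genes were called in either direction. Without Nrf2-/- SFN 1 h replicate 2, 34 members were called higher beside 12.9% of all genes, and without replicate 1, 30 were called lower beside 11.3% of all genes, so that the direction depended on the replicate. Lowest in unadjusted p were Mrpl12 (log2 fold change 0.36, SE 0.16, adjusted p = 0.2301), Mrps30 (-0.26, adjusted p = 0.256) and Mrpl18 (0.22, adjusted p = 0.3165). The difference in 1 h response between genotypes was called for 0 members (0 at an unadjusted p under 0.05, 0 by DESeq2), against 0.123% of all genes. Mrpl18 (0.35, adjusted p = 0.6834), Mrps15 (0.35, adjusted p = 0.8147) and Mrps7 (0.30, adjusted p = 0.8263) had the lowest unadjusted p. The difference was called above 0 for 15 members without Nrf2-/- SFN 1 h replicate 2, beside 3.51% of all genes, and below 0 for 17 without replicate 1, beside 5.34%.

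**Figure D5:**
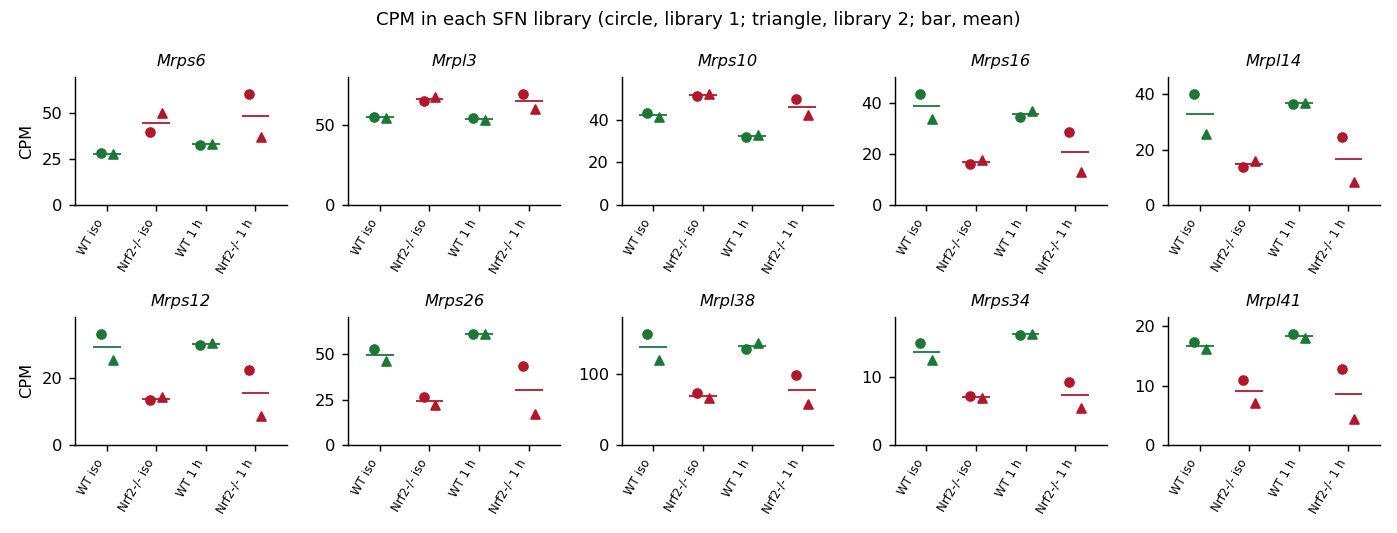
CPM (linear axis from 0) in each of the 8 SFN libraries of isosmotic and 1 h cells for the members named in the comparison of genotypes; green is WT, red is Nrf2-/-, circles are replicate 1, triangles replicate 2, bars means. The isosmotic Nrf2-/- replicates lie close together, at 16.2 and 17.6 CPM for Mrps16, and those at 1 h lie apart, at 43.5 and 16.9 CPM for Mrps26.

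In the lists beside the members, isosmotic Nrf2-/- cells had 5 of 25 assembly factors lower and 1 higher (median -0.21), and 2 of 13 translation factors lower and 1 higher (median -0.13). Nuclear respiratory chain genes were lower in 13 of 85 cases (median -0.40), and cytosolic ribosomal protein genes were lower in 6 and higher in 3 of 84 (median -0.19). Ppargc1a was at 2.12 and 1.21 CPM in WT and 0.455 and 0.752 CPM in Nrf2-/- libraries (log2 fold change -1.43, SE 0.34, adjusted p = 0.004161). Gabpa, a subunit of an ETS factor that binds promoters of mitochondrial genes, was higher (0.86, SE 0.12, adjusted p = 4.616e-05), and Chchd1, a small subunit protein under another symbol, was lower, at 36.1 and 34.6 CPM against 65.3 and 63.0 CPM (-0.86, SE 0.23, adjusted p = 0.008683). Myc (0.85, adjusted p = 0.0003036) and the assembly factor Fastkd2 (0.67, adjusted p = 0.01871) were higher too, and Gadd45gip1, a large subunit protein under another symbol, was lower (-0.71, adjusted p = 0.01323). At 1 h, Lrpprc, which stabilizes mitochondrial messages (0.89, adjusted p = 0.001112), the release factor gene Mtrf1 (0.86, adjusted p = 0.04872) and Fastkd2 (0.81, adjusted p = 0.006979) were higher. Ppargc1a (-1.43, adjusted p = 0.00535), the GTPase Mtg2 (-0.57, adjusted p = 0.03216) and the recycling factor Gfm2 (-0.47, adjusted p = 0.004812) were lower at 1 h. These 1 h values rest on the Nrf2-/- SFN 1 h pair with the wide spread.

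The members lower at 6 h with DMSO and those lower in isosmotic Nrf2-/- cells come from comparisons with no library in common. 16 members were lower in both, 37.2% of the 43 and 57.1% of the 28, where the genes lower in both over the whole table were 27.7% and 33.1%. Of all 77 members, 43 fell at 6 h and 28 were lower in isosmotic Nrf2-/- cells. Both shares of the members thus lay close to the members' own rates. Across all 13 comparisons and differences, 18 members (23.4%) were never called, close to the 26.4% of all genes, among them Mrps21 and Mrpl34, which were high per length, and Mrpl33 and Mrpl48, which were low.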

How the data were processed

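RNA-seq of mIMCD3 cells gave 16 libraries in 8 groups of 2. Per the labels and methods of the study, RNA from TRIzol extraction was sequenced on an Illumina NovaSeq, reads were aligned to mm10 (Hisat2 in the methods, Bowtie2 in the submitters' processing notes), and featureCounts was run. The authors deposited raw counts per gene symbol. Versions, annotation and strand setting are not given in the sources used here. Totals were 34484296 to 50774875 counts, and precision from counts covers counting error only.

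The counts were fitted with edgeR 4.0.16 in R 4.3.3 (filterByExpr, TMM, robust quasi-likelihood, 1 coefficient per group, Benjamini-Hochberg over the 19509 genes kept). There were 10 comparisons and 3 interactions. The code was tested on simulated data. An exact permutation test of 2 against 2 libraries cannot go below p = 0.333 and was not used. Positions and union exon lengths are those of GENCODE M21 (GRCm38) for each of the 78 symbols. Alternatives were DESeq2 1.42.0, RLE scaling, other filters, fewer libraries, a replicate block and leaving out single libraries.

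The members and gene lists were chosen with earlier results of these data known. Named are the up to 5 members called in each direction with the largest change per comparison, or, with fewer than 3 called, the 3 of lowest unadjusted p. Also named are the 5 highest and lowest by level, the Mrps18 paralogs, the stalk genes, Mrps12, Mrpl58, Mrps36, any member the filter dropped, and up to 3 called pathway genes per direction. Mrpl45 in the genotype comparison, Tfam and the members listed for overlaps or as never called were added after their values were seen.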

Additional observations from a re-analysis of the deposited data

How the results depend on the processing

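The number of members called moved with the libraries in the fit, and was higher or the same without the Nrf2-/- SFN 1 h pair, whose spread was the widest. The share of all genes called is not given beside the counts in this section. They do not show whether members moved more than the whole table. For SFN against DMSO isosmotic, 0 calls became 2 without a filter, 10 with the 12 WT libraries, 1 with the libraries compared and 15 without the Nrf2-/- SFN 1 h pair, and at 1 h 0 became 1 with the libraries compared. For 1 h against isosmotic with DMSO, 1 call became 2 by DESeq2 and without a filter, 0 with at least 10 counts in every library, 11 with the WT libraries, 10 with the libraries compared and 14 without the pair, and 0 without any 1 library. With SFN at 1 h, 0 became 1 by DESeq2 and 3 with the WT libraries, the libraries compared or without the pair. For genotype isosmotic, 30 became 47 with the libraries compared and 52 without the pair. For genotype at 1 h, 27 became 0 with the libraries compared.

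Leaving out 1 library at a time gave 34 to 45 called members at 6 h with DMSO, 26 to 34 at 6 h with SFN, 12 to 24 for genotype isosmotic, 8 to 54 for genotype at 1 h, 0 to 34 for 1 h in Nrf2-/- cells and 0 to 17 for genotype by 1 h. Mrpl12 at 1 h in Nrf2-/- cells ranged from -0.0030 to 0.65 (log2), the only named value to change sign. With a replicate block the counts were 45, 40, 30 and 27 for the 6 h and genotype comparisons. It changed no other count of calls, and among named genes it ended the call for Mrpl24. RLE scaling moved the median of all genes at 6 h with DMSO from 0.05 to 0.14 and left 40 members lower. With 2 libraries a group, members whose change was small against their spread were not detectable.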
